A study of Homo sapiens with 6 samples.

Results

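This account covers 46 genes that interferon induces or that sense and act on foreign RNA, measured in Raji cells in which the coactivator OBF1 was lowered. The 46 were chosen by name as a functional set, with earlier results of these data already known. Each was matched by gene identifier among the 23459 genes of the table, with RIGI entered under the gene formerly called DDX58. Raji is an established Burkitt's lymphoma line that carries Epstein-Barr virus, and the labels call it germinal centre-derived. OBF1 is the product of POU2AF1, a B cell cofactor of the Oct transcription factors Oct1 and Oct2.

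The control group carried the non-target hairpin SHC002 and the other group carried the hairpin OBF1sh1, with 3 libraries each and 1 hairpin per group. All 6 libraries therefore came from cells that had been through lentiviral infection for 5 days and puromycin selection, at 3 μg/ml, for 7 days. RNA was read as poly(A)-selected, stranded libraries, and the depth was 29569281 to 32612429 gene counts per library. Nothing in the labels says that the 3 libraries of a group were separate cultures, so the p-values reflect how far these libraries differ among themselves, and part of that may be technical. POU2AF1 itself stood at 512, 516 and 512 CPM (counts scaled to a common library size) in the control libraries and at 244, 241 and 241 CPM in the OBF1 shRNA libraries. The 6 B cell markers were all detected and summed to between 2456 and 2525 CPM in control and between 4123 and 4179 CPM in OBF1 shRNA libraries. MS4A1 carried most of that rise, with means of 702 and 2078 CPM. Of the 6, 5 were higher and 1, CD79B, was lower, at 664 and 610 CPM.

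Cells recognise foreign or misplaced RNA with helicases of the RIG-I family, which signal through mitochondria to switch on the interferon genes. Secreted interferons bind receptors that activate the kinases JAK1 and TYK2 and then a complex of transcription factors that includes STAT2 and IRF9. That complex binds the interferon-stimulated response element (ISRE) in the promoters of interferon-stimulated genes, whose products block virus entry, RNA translation, replication or release. B cells keep this system, and Epstein-Barr virus makes small structured RNAs known to engage it.

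Most of the interferon-stimulated genes that could be tested were higher in the cells with less OBF1. CPM values here use library sizes adjusted by TMM (trimmed mean of M values), fold changes set OBF1 shRNA over control shRNA, and a gene is called when edgeR's quasi-likelihood test gives a Benjamini-Hochberg adjusted p under 0.05 over all 12010 tested genes. Of the 46 members 37 passed the low-count filter (80.4%). Called members numbered 33 of the 37 (89.2%), beside 75.4% of all tested genes. The direction was uneven: 30 members were called higher (81.1%), beside 37.5% of all tested genes, and 3 were called lower (8.11%), beside 37.9%. Higher by at least 1.5-fold were 23 members (62.2%), beside 12.9% of tested genes, and lower by as much was 1 member (2.70%), beside 10.4%.

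The median log2 fold change was 0.77 over the tested members and -0.01 over all tested genes. In 30 members every OBF1 shRNA library lay above every control library, which was so for 38% of all tested genes, and in 3 members every one lay below, which was so for 38.7%. Because most genes were called in this comparison, the share of called members is not read as a result, and the description rests on the direction and size of their changes. The 3 members OASL, MX2 and GBP2 passed the filter through the OBF1 shRNA libraries alone and so had to be higher. Among the other 34, 27 were called higher and 3 lower, with a median of 0.73, beside -0.02 over all genes that passed the same floor in the control libraries.

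**Figure D1:**
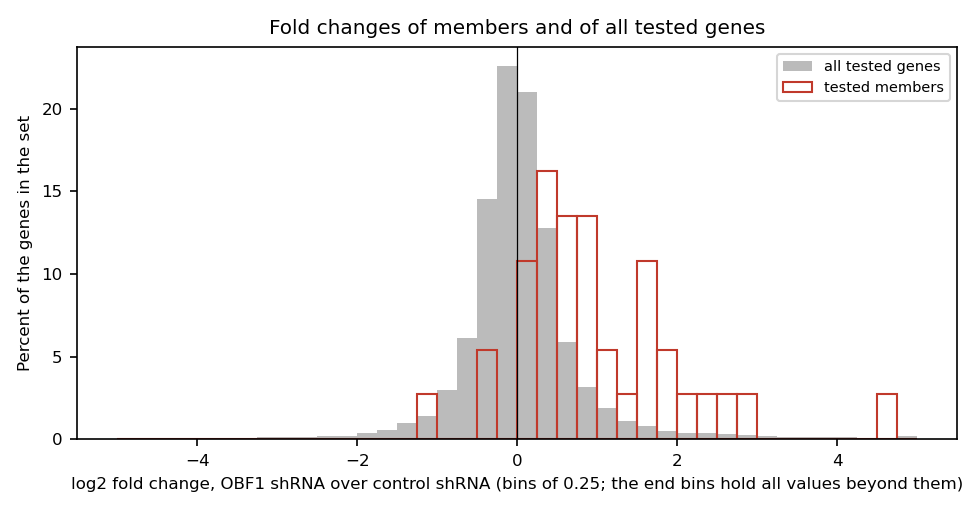
Percent of genes in each 0.25-wide bin of log2 fold change (x axis) for all 12010 tested genes (grey) and for the 37 tested members (red outline); the outermost bins hold everything beyond them. The grey bars centre on 0, whereas 34 of the 37 members lie above 0 and the median member is at 0.77.

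Changes of the 30 higher members ran from 0.19 to 4.67 on the log2 scale, with adjusted p from 9.99e-17 to 0.00218 (edgeR). At least 4-fold higher were 5 of them, OASL, IFIT3, GBP1, GBP2 and XAF1, a size that 2.33% of all tested genes reached. Of these, OASL and GBP2 passed the filter through the OBF1 shRNA libraries alone, so being higher was fixed for them. IFIT3, GBP1 and XAF1 also passed its floor in the control libraries, whereas the 2.33% was taken without that floor. A further 9 were 2-fold to 4-fold higher, among them MX2, which also passed through the OBF1 shRNA libraries alone. Another 9 were 1.5-fold to 2-fold higher and 7 changed by less than 1.5-fold. RIGI, EIF2AK2, IFIT5 and IFI27 were not called. The members that went the other way were ISG20, SAMD9 and IFI44. In bulk RNA, a change in the number of cells that express a gene and a change in RNA per cell cannot be told apart.

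Members were higher across the range of levels. Of the 14 tested members with a mean under 10 CPM over all 6 libraries, 11 passed the filter's floor in the control libraries, and of these 8 were called higher and 1 lower. Their median log2 fold change was 0.999, beside -0.14 over all 2904 genes of that range that passed the same floor. From 10 to 100 CPM, 19 members had a median of 0.71, beside -0.005 over all 6170 tested genes of that range. Of the 19, 15 were called higher and 2 lower. The 4 members over 100 CPM, ADAR, UBE2L6, IFI16 and BST2, were all higher. Their median was 0.61, beside 0.02 over all 2598 tested genes of that range. Sizes of change differ by level in general: the median absolute log2 fold change was 0.52 over all tested genes under 10 CPM and 0.24 over those above 100 CPM.

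**Figure D2:**
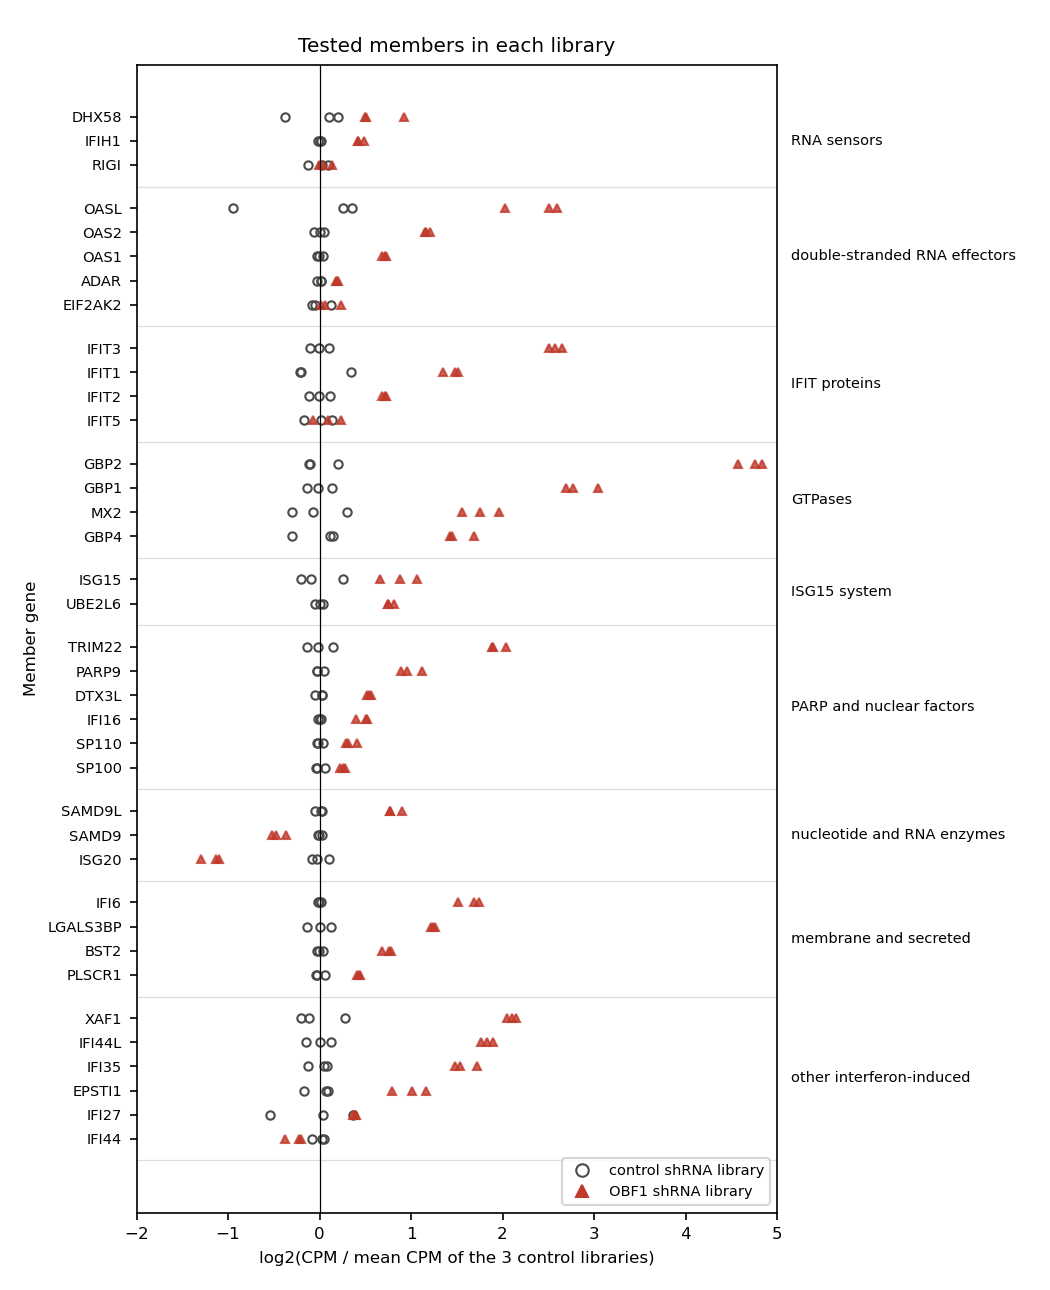
Each row is 1 tested member, grouped by role, and each symbol is 1 library's CPM on a log2 scale relative to the mean of the 3 control libraries (open circles, control shRNA; red triangles, OBF1 shRNA; the vertical line at 0 is the control mean). Triangles lie to the right of all circles in 30 rows and to the left of all circles in ISG20, SAMD9 and IFI44.

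The promoters of these genes were searched for fixed letters, because the ISRE is the element through which the interferon-activated complex acts. RefSeq promoter windows of assembly GRCh38.p14, running from 250 bases before a transcript's start to 50 bases after it, were available for 38 of the 46 members, and a gene was counted if any of its windows held a match on either strand. The ISRE core GAAANNGAAA was found in 26 of the 38 members (68.4%), beside 4.38% of all 27305 genes with a window and 4.16% of the tested genes. It was found in 14 of 23 members called higher, in 3 of 3 called lower, in 3 of 4 not called and in 6 of 8 not tested. Tested members with the core had a median log2 fold change of 0.81 (20 members, from -1.18 to 2.83), and those without it 0.59 (10 members, from 0.06 to 2.10). The share called higher ran the other way, with 14 of the 20 and 9 of the 10. IFIT2, OASL, MX2, TRIM22, GBP2, OAS2 and DHX58, all called higher, had no window and are in neither group. Whether the core goes with the size of the change was not tested.

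The sites below let the surroundings of the core be compared between genes that rose, fell, were not called or were barely detected. The search fixed 8 of the 10 letters of the core, so their likeness there is no finding. Of the 26 members with a flanked site 15 are shown, picked with values in view: all that were lower, and examples of the higher, uncalled and untested ones. Each is the ISRE core nearest to a transcript start, in capitals, with its 10 flanking bases on each side, read 5′ to 3′ on the strand that spells the core. The first 6 lines belong to members called higher.
IFIT3: aaggggaaagGAAAGTGAAActgatggaac
IFIT1: gaaacctaggGAAACCGAAAggggaaagtg
GBP1: agagtaatatGAAACTGAAAgtacttcgtt
ISG15: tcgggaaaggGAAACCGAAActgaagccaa
IFI6: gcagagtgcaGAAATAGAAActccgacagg
PARP9 and DTX3L: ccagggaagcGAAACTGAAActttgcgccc
The 3 members called lower follow.
ISG20: taacaaactaGAAACTGAAAcagggtcggg
SAMD9: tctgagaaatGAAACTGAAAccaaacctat
IFI44: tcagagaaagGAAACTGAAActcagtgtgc
IFIT5 and EIF2AK2 were tested and not called.
IFIT5: cgagcgctcaGAAACTGAAActtaagaaat
EIF2AK2: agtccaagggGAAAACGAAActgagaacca
MX1, HERC5 and DDX60 had too few counts to test.
MX1: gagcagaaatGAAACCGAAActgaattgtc
HERC5: agctccagtgGAAAACGAAAcataatgttt
DDX60: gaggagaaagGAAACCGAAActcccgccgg

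In the GRCh38.p14 assembly the IFIT3 site lies at chr10:89332468-89332497 on the minus strand, with its core 51 bases before the start, and the ISG20 site at chr15:88638937-88638966 on the plus strand, 69 bases before the start. The SAMD9 site lies at chr7:93118096-93118125 on the minus strand and the IFI44 site at chr1:78649761-78649790 on the minus strand. PARP9 and DTX3L are neighbours read in opposite directions from a shared promoter, and the same 30 bases, chr3:122564322-122564351, hold the nearest core of both genes. The IFI44, SAMD9, ISG20 and IFIT5 sites carry CT at the free positions of the core, as do the site of GBP1 and the site shared by PARP9 and DTX3L. Over all 26 members' sites CT stood there in 9, CC in 5, AC in 3 and another pair in the rest. Directly after the core a C stood in 18 of the 26 members' sites (69.2%), beside 20.2% of the sites of all 1123 genes with a fully flanked core. By call, it stood in 8 of 14 sites of higher members, 3 of 3 of lower, 3 of 3 of uncalled and 4 of 6 of untested ones. In these counts the site shared by PARP9 and DTX3L counts once for each gene. The members were chosen by function, so the share with a C after the core describes the chosen set, not its change here.

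Other elements were rarer. The gamma-activated sequence TTCNNNGAA, the palindromic element of interferon-gamma signalling, was found in 10 of the 38 members (26.3%), beside 9.38% of all genes with a window. In BST2, EPSTI1, IFI27 and MX1 such a match overlapped an ISRE core. The usual NF-kB consensus was found in 6 of the members (15.8%), beside 7.09% of all genes. The octamer ATGCAAAT, the element of the Oct factors with which OBF1 works, was found in 0 of the 38 members, beside 2.19% of all genes. A match is a stretch of letters and not a measured binding site, and an absent match says only that the letters are not in these 300 bases.

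Of the 3 RNA sensors tested, 2 were called higher, beside 37.5% of all tested genes, and 1 was not called. RIGI, the helicase RIG-I that recognises short double-stranded RNA ends, stood at 10.5, 9.46 and 11.0 CPM in control and at 10.3, 11.4 and 10.6 CPM in OBF1 shRNA libraries, so the groups overlapped. Its log2 fold change was 0.06 (SE 0.08, edgeR adjusted p = 0.501). IFIH1, the helicase MDA5 that recognises long double-stranded RNA, stood at 44.0, 43.5 and 42.9 CPM in control and at 58.4, 61.0 and 58.1 CPM with OBF1 shRNA. Every OBF1 shRNA library lay above the controls, by 1.36-fold (log2 fold change 0.44, SE 0.04, edgeR adjusted p = 6.01e-09).

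DHX58, the helicase LGP2, which lacks the signalling domains of the other two, was measured at 1.95, 1.40 and 2.09 CPM in control and at 3.45, 2.56 and 2.59 CPM with OBF1 shRNA. Its groups did not overlap, and the change was 1.58-fold (edgeR adjusted p = 0.00218). DDX60, a helicase linked to the same receptors, had 0 counts in 5 libraries and 2 counts in the other.

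Of the 5 tested members that bind or act on double-stranded RNA, or belong to such a family, 4 were called higher. Over all tested genes that share was 37.5%. OAS2, which makes short oligoadenylates that signal the presence of double-stranded RNA, stood at 31.6, 32.6 and 30.4 CPM in control and at 72.6, 70.7 and 70.2 CPM with OBF1 shRNA. This was a gain of 2.25-fold with little spread within either group (edgeR adjusted p = 9.36e-15). Its paralog OAS1 rose 1.64-fold, from 10.1 ± 0.23 to 16.5 ± 0.30 CPM (SD, n = 3). OASL, a relative without synthetase activity, rose 5.13-fold from 0.19 ± 0.08 to 0.98 ± 0.19 CPM (SD, n = 3), a level that remained low.

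The third synthetase did not share this pattern. OAS3, which lies between OAS1 and OAS2, had 12, 7 and 9 counts in control and 2, 6 and 4 counts with OBF1 shRNA, too few for the filter. When the filter was dropped its log2 fold change was -1.10 and was not called (edgeR adjusted p = 0.0782). EIF2AK2, the kinase PKR that stops translation on binding double-stranded RNA, stood at 25.6, 26.2 and 29.6 CPM against 28.2, 32.1 and 27.5 CPM, with overlapping groups (log2 fold change 0.11, SE 0.06, edgeR adjusted p = 0.125). It became called, as higher, in 3 of the alternative fits: with no low-count filter (edgeR adjusted p = 0.0497), without control shRNA replicate 3 (0.0195) and without OBF1 shRNA replicate 3 (0.0411). ADAR, which edits adenosine to inosine in double-stranded RNA and so keeps self RNA from the sensors, had the smallest change of the called members, 1.14-fold, from 626 ± 9.47 to 715 ± 4.20 CPM (SD, n = 3).

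The IFIT proteins, which bind viral RNA ends and block their translation, differed widely among themselves. IFIT3, the partner that stabilises the IFIT complex, had the smallest p-value of all members. It stood at 6.40, 6.87 and 5.97 CPM in control and at 36.6, 38.2 and 40.4 CPM with OBF1 shRNA, a gain of 5.98-fold (log2 fold change 2.58, SE 0.06, edgeR adjusted p = 9.99e-17). IFIT1, which binds RNA lacking the host's cap methylation, stood at 1.70, 2.47 and 1.68 CPM in control and at 5.45, 4.99 and 5.55 CPM with OBF1 shRNA, 2.72-fold higher (edgeR adjusted p = 3.02e-08). IFIT2 rose 1.63-fold, from 13.2 ± 1.09 to 21.6 ± 0.29 CPM (SD, n = 3).

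IFIT5 was the exception in the family. Its libraries held 2.27, 2.80 and 2.57 CPM in control and 2.71, 2.43 and 3.00 CPM with OBF1 shRNA, which overlap (edgeR adjusted p = 0.571). IFIT2, IFIT3, IFIT1 and IFIT5 lie in this order in 1 cluster on chromosome 10. The IFIT3, IFIT1 and IFIT5 sites are printed above; no window for IFIT2 was in the promoter table.

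Interferon-induced GTPases were low in control and higher with OBF1 shRNA. Of the 4 tested, GBP2 and MX2 passed the low-count filter through the OBF1 shRNA libraries alone, so their direction was fixed by the filter, and GBP1 and GBP4 passed it in both groups. GBP2, a guanylate-binding protein of defence against pathogens inside the cell, had 3, 4 and 3 counts in the control libraries, or 0.096, 0.119 and 0.095 CPM, and 2.46, 2.95 and 2.81 CPM with OBF1 shRNA. The fitted change was 25.5-fold (log2 fold change 4.67, SE 0.27, edgeR adjusted p = 2.14e-11), and its size rests on 10 control counts in all. GBP1, its relative, stood at 0.960, 1.16 and 1.05 CPM in control and at 6.82, 8.69 and 7.18 CPM with OBF1 shRNA, 7.13-fold higher (edgeR adjusted p = 3.37e-12).

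GBP4 had 0.832, 0.625 and 0.857 CPM in control and 2.08, 2.10 and 2.49 CPM with OBF1 shRNA, 2.89-fold higher (edgeR adjusted p = 8.85e-07). MX2, a dynamin-like restriction factor of retroviruses including HIV, rose 3.35-fold from 0.16 ± 0.03 to 0.53 ± 0.07 CPM (SD, n = 3). MX1, the neighbouring gene and a restriction factor of influenza viruses, had 1 count in 1 control library and none elsewhere. The 5 GTPases together summed to 2.08 to 2.13 CPM in control and 11.8 to 14.3 CPM with OBF1 shRNA.

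The ISG15 system attaches the ubiquitin-like protein ISG15 to other proteins and was present here only in part. UBE2L6, the conjugating enzyme, stood at 78.2, 83.5 and 81.6 CPM in control and at 143, 136 and 137 CPM with OBF1 shRNA, 1.71-fold higher (edgeR adjusted p = 2.72e-13). ISG15 itself rose 1.83-fold, from 12.6 ± 2.16 to 23.1 ± 3.23 CPM (SD, n = 3), with no overlap. HERC5, the main human ligase for ISG15, had 0 counts in all 6 libraries, which allows up to 3 counts, or 0.089 to 0.106 CPM, in a library. USP18, the protease that removes ISG15 and restrains the interferon receptor, had at most 2 counts in a library, and HERC6, a relative of HERC5, at most 3.

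All 6 tested members among the ADP-ribosylation and nuclear factors were called higher, and 2 of these by at least 1.5-fold. The shares over all tested genes were 37.5% and 12.9%. TRIM22, a ubiquitin ligase that represses viral transcription, stood at 8.80, 8.10 and 9.87 CPM in control and at 33.1, 33.3 and 36.7 CPM with OBF1 shRNA, 3.86-fold higher (edgeR adjusted p = 1.61e-14). PARP9 and DTX3L, which form a complex of an ADP-ribosyltransferase-family protein and a ubiquitin ligase, rose 1.99-fold and 1.46-fold. Although they share the promoter site printed above, their log2 fold changes were 0.99 (SE 0.05) and 0.54 (SE 0.03). PARP14, a family relative with PARP15 between it and DTX3L in the reference gene order, had 3 to 9 counts per control library and 1 to 7 per OBF1 shRNA library.

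IFI16, a nuclear DNA sensor, rose 1.39-fold from 165 ± 1.69 to 229 ± 11.0 CPM (SD, n = 3). SP110 and SP100, proteins of nuclear bodies, rose 1.27-fold and 1.19-fold. SP140, the relative beside SP110 that is not a member, rose 2.13-fold.

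The enzymes that act on nucleotides and RNA held the clearest exceptions. ISG20, an exonuclease that degrades RNA, stood at 63.1, 69.0 and 60.6 CPM in control and at 29.2, 26.1 and 29.9 CPM with OBF1 shRNA. All OBF1 shRNA libraries lay below all controls, by 2.26-fold (log2 fold change -1.18, SE 0.05, edgeR adjusted p = 9.98e-13). The gene beside it, AEN, which encodes a related exonuclease, was also lower (log2 fold change -0.39, edgeR adjusted p = 1.51e-09). SAMD9, a cytoplasmic protein that blocks translation and restricts poxviruses, stood at 96.9, 97.7 and 101 CPM in control and at 70.5, 76.1 and 68.7 CPM with OBF1 shRNA, 1.37-fold lower (log2 fold change -0.45, edgeR adjusted p = 4.27e-09).

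SAMD9L, the neighbouring paralog of SAMD9, moved the other way. It rose 1.76-fold, from 12.9 ± 0.41 to 22.7 ± 1.17 CPM (SD, n = 3). CDK6, on the other side of SAMD9, was lower (log2 fold change -0.93). RSAD2, the viperin enzyme that makes a chain-terminating nucleotide, had 1 to 2 counts in each library. CMPK2, the nucleotide kinase beside it, had 0 counts in all 6 libraries.

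All 4 membrane and secreted members were called higher, and 3 of these by at least 1.5-fold, beside 37.5% and 12.9% of all tested genes. BST2, the tetherin protein that holds budding viruses at the cell surface, stood at 126, 129 and 123 CPM in control and at 217, 202 and 213 CPM with OBF1 shRNA, 1.67-fold higher (edgeR adjusted p = 1.87e-13). IFI6, a protein of the endoplasmic reticulum that limits flavivirus replication, stood at 1.95, 1.99 and 1.97 CPM in control and at 6.61, 5.61 and 6.35 CPM with OBF1 shRNA, 3.13-fold higher (edgeR adjusted p = 4.41e-10). LGALS3BP, a secreted glycoprotein that binds galectins, rose 2.36-fold from 19.9 ± 1.83 to 47.2 ± 0.68 CPM (SD, n = 3). PLSCR1, a phospholipid scramblase, rose 1.35-fold.

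The remaining 6 members include genes used widely to read interferon activity. IFI44L stood at 5.86, 4.88 and 5.43 CPM in control and at 20.1, 19.2 and 18.4 CPM with OBF1 shRNA, 3.57-fold higher (edgeR adjusted p = 2.06e-13). XAF1, an antagonist of the apoptosis inhibitor XIAP, stood at 1.12, 0.804 and 0.857 CPM in control and at 3.98, 4.10 and 3.83 CPM with OBF1 shRNA, 4.28-fold higher (edgeR adjusted p = 8.17e-10). IFI35 had 4.61, 5.33 and 5.21 CPM in control and 14.6, 14.1 and 16.6 CPM with OBF1 shRNA, 2.99-fold higher (edgeR adjusted p = 1.15e-11). EPSTI1 rose from 5.50 ± 0.54 to 11.0 ± 1.41 CPM (SD, n = 3).

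IFI44 and IFI27 departed from these 4. IFI44, the paralog and neighbour of IFI44L, stood at 7.04, 7.11 and 6.54 CPM in control and at 5.31, 5.91 and 6.00 CPM with OBF1 shRNA, 1.20-fold lower without overlap (log2 fold change -0.26, SE 0.09, edgeR adjusted p = 0.0127). That call did not hold with DESeq2, at an adjusted p of 0.0651, or when OBF1 shRNA replicate 1 was left out of the edgeR fit, at 0.0611. IFI27, a mitochondrial protein and a common blood marker of interferon, had 0.992, 1.25 and 0.667 CPM in control and 1.27, 1.25 and 1.28 CPM with OBF1 shRNA, and was not called (edgeR adjusted p = 0.137). Without control shRNA replicate 2, the highest control library, it was called higher (edgeR adjusted p = 0.0296).

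**Figure D3:**
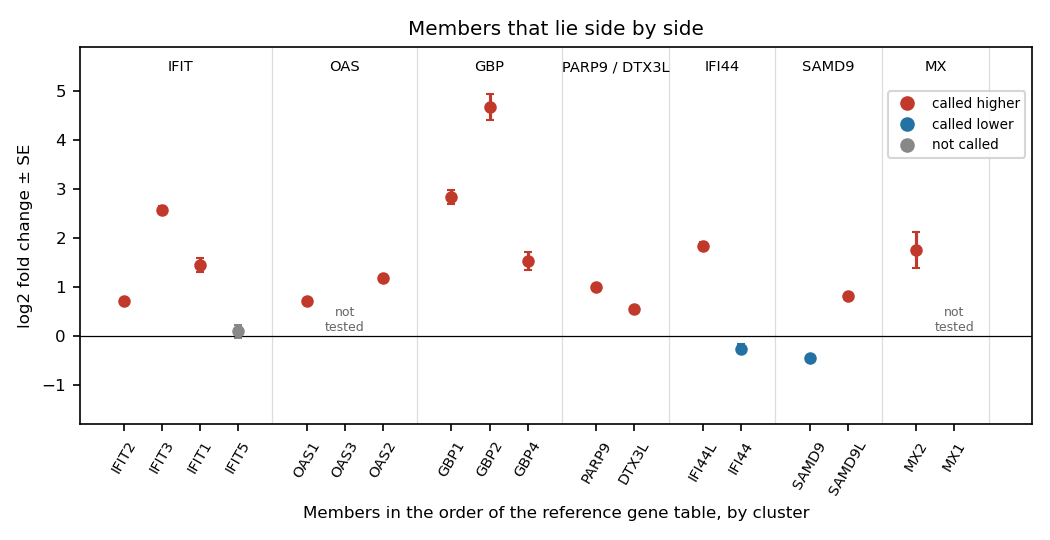
Log2 fold change of OBF1 shRNA over control shRNA with its standard error (y axis) for members that lie side by side, in the order of the reference gene table (x axis; red, called higher; blue, called lower; grey, not called). IFI44L is at 1.84 beside IFI44 at -0.26, SAMD9L at 0.81 beside SAMD9 at -0.45, and IFIT3 at 2.58 in a cluster with IFIT5 at 0.09.

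Neighbouring members thus did not form blocks of equal change. Of 35 tested genes that lie beside a member and are not members, 18 were higher, 10 lower and 7 not called. Over all tested genes 37.5% were called higher and 37.9% lower, 75.4% in either direction. Beside ADAR, CHRNB2 and KCNN3 were lower, with log2 fold changes of -1.67 and -0.62. Some relatives of members were higher. GBP3, beside GBP1, rose from 0.39 to 1.13 CPM, with a log2 fold change of 1.51. PYHIN1 and AIM2, relatives on either side of IFI16, had log2 fold changes of 1.05 and 0.86. TRIM34, beside TRIM22, had 0.88, and LIPA, a lysosomal lipase beside IFIT2 and no relative, 0.54. How reads of near-identical neighbours were shared in counting is not given in the sources used here, so values within the IFIT, GBP and OAS families are uncertain to that extent.

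Compared per length, in RPKM (CPM divided by gene length in kilobases), the members spanned a wide range of levels. BST2 was the most abundant, at 134 RPKM in control and 224 RPKM with OBF1 shRNA, followed by ADAR at 88.3 and 101 RPKM. IFI16 stood at 49.4 and 68.9 RPKM and UBE2L6 at 46.5 and 79.5 RPKM, so these neighbours in the order changed places. ISG20 went from rank 5 in control, at 21.7 RPKM, to rank 14 with OBF1 shRNA, at 9.60 RPKM. IFIT3 went from rank 20, at 2.39 RPKM, to rank 9, at 14.3 RPKM. At the lower end MX2 was at 0.02 and 0.06 RPKM and GBP2 at 0.02 and 0.65 RPKM.

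**Figure D4:**
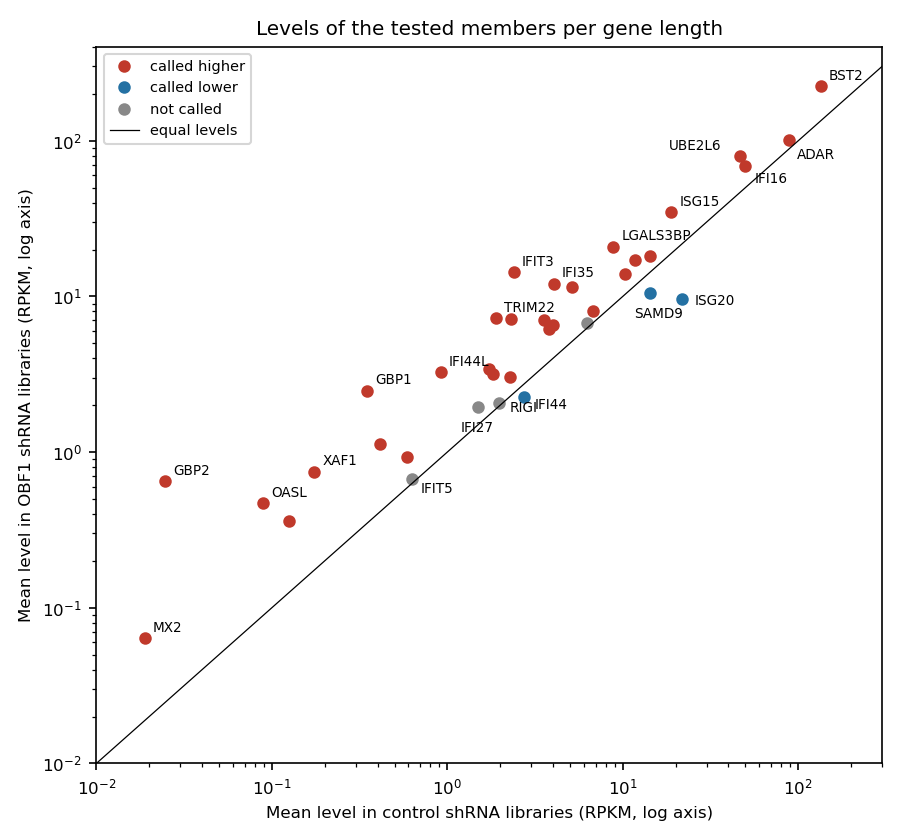
Mean RPKM in control libraries (x axis, log) against mean RPKM in OBF1 shRNA libraries (y axis, log) for the 37 tested members; the line marks equal levels (red, called higher; blue, called lower; grey, not called). Points far above the line, such as GBP2, GBP1 and IFIT3, start low, while BST2 and ADAR at the top right lie closer to it.

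The total of the set was carried by a few genes. Summed over all 46 members, levels were between 1588 and 1597 CPM in control and between 2119 and 2154 CPM with OBF1 shRNA. Members with a higher mean gained 609.9 CPM together, whereas the sum of those with a lower mean fell by 63.8 CPM. ADAR, BST2, IFI16 and UBE2L6 gained most, at 88.95, 84.64, 64.79 and 57.46 CPM, at folds of 1.14, 1.67, 1.39 and 1.71. The 5 members with the highest CPM, taken in each group separately, held 68.9% of the sum in control and 65.1% with OBF1 shRNA. ADAR, IFI16, BST2 and UBE2L6 were among them in both groups, joined by SAMD9 in control and by DTX3L with OBF1 shRNA.

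Further interferon-stimulated genes, a list of 32 other genes, were also more often higher than lower. Of 24 tested, 17 were called higher, 2 lower and 5 not called (median 0.43). For comparison, 37.5% of all tested genes were called higher and 37.9% lower. IFI30, a lysosomal thiol reductase of antigen processing, stood at 406 and 1128 CPM, 2.78-fold higher. Those lower were APOL6, 1.60-fold, and APOL2, 1.31-fold, both members of the apolipoprotein L family. IFITM2, counted among the higher, had 9, 13 and 11 counts in control and 23, 19 and 11 with OBF1 shRNA, with overlapping groups. Its call was marginal (edgeR adjusted p = 0.0495), and only in the OBF1 shRNA group did IFITM2 reach the filter's floor in every library.

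Among receptors, kinases and factors of interferon signalling, 10 of 15 were higher, 4 lower and 1 not called (median 0.42). The shares over all tested genes were 37.5% higher and 37.9% lower. TYK2, a kinase of the type I receptor, stood at 110 and 307 CPM, 2.81-fold higher. IFNGR1, the ligand-binding chain of the interferon-gamma receptor, was 2.04-fold higher, whereas IFNAR2, of the type I receptor, was 1.27-fold lower and JAK1 1.10-fold lower. The following genes were picked after their values were seen. IFNAR1, the other chain of the type I receptor, was also lower (64.4 and 57.5 CPM). IRF9 was higher, at 17.4 and 23.2 CPM, while STAT2, its partner, stood at 35.5 and 34.5 CPM and was not called (edgeR adjusted p = 0.491). IRF7, the factor that amplifies interferon transcription, was higher at 2.07 and 5.53 CPM.

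The interferon genes themselves were at the limit of detection. None of 22 passed the filter, 18 had 0 counts in all libraries, and together they summed to between 0.16 and 0.30 CPM in control and between 0.07 and 0.16 CPM with OBF1 shRNA. Most of this came from IFNB1, the interferon-beta gene, at 0.160, 0.238 and 0.159 CPM in control and 0.106, 0.033 and 0.128 CPM with OBF1 shRNA. A rise of interferon RNA was thus not detectable at this depth.

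Of 20 tested genes of nucleic acid sensing outside the set, 11 were higher and 8 lower (median 0.16). Beside 37.5% higher and 37.9% lower over all tested genes, the higher share was larger and the lower share similar. Only in the control group did CGAS, called lower, and ZBP1, not called, reach the filter's floor in every library. The filter therefore favoured lower values for these genes. IRF5, an interferon regulatory factor downstream of Toll-like receptors, was 3.10-fold higher and IKBKE, a kinase of interferon regulatory factors, 2.38-fold higher. TLR3, the endosomal receptor of double-stranded RNA, fell 2.66-fold, from 5.35 to 2.01 CPM. RNF135, the ubiquitin ligase that activates RIG-I, fell 1.48-fold.

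Interferon-gamma-induced genes were mostly higher, with 12 of 13 tested higher and 1 lower (median 0.87). Among all tested genes these shares were 37.5% and 37.9%. CIITA, the master activator of MHC class II genes, was 3.32-fold higher. CXCL10, a chemokine, went from 6.51 to 33.8 CPM, 5.18-fold higher. WARS1, a tryptophanyl-tRNA synthetase, was the exception, 1.81-fold lower.

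Counts for brakes of the pathway and for enzymes that clear nucleic acids stand beside 37.5% higher and 37.9% lower over all tested genes. Of 10 tested brakes 5 were higher and 2 lower (median 0.20). PTPN6, the phosphatase SHP-1, stood out at 3.37 and 83.4 CPM, 24.7-fold higher, beside PTPN1 at 1.31-fold higher. PIAS2 and TRIM27 were lower, by 1.17-fold and 1.10-fold. Of 11 clearing enzymes 4 were higher and 3 lower (median 0.05). SAMHD1, which depletes nucleotides and restricts retroviruses, was 1.65-fold higher and SKIC2, an RNA helicase of the exosome pathway, 1.49-fold higher, while DNASE2, the lysosomal nuclease, was 1.79-fold lower and XRN1, the cytoplasmic exonuclease, 1.37-fold lower.

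**Figure D5:**
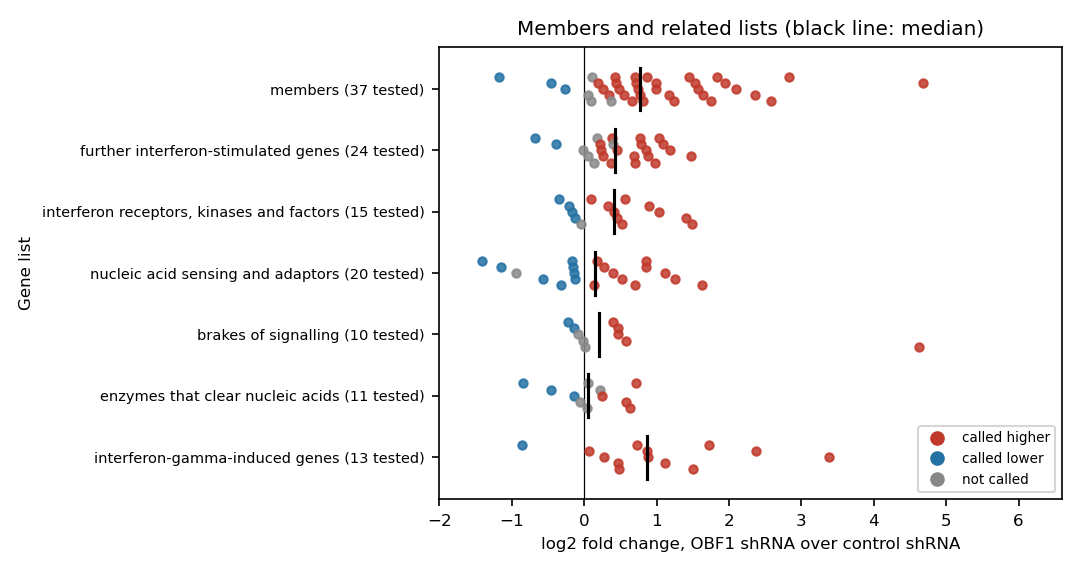
Log2 fold change (x axis) of each tested gene in the members and in 6 related lists (y axis), coloured by call (red, higher; blue, lower; grey, not called), with the median of each list as a black bar. Medians of the members and of the interferon-gamma-induced genes lie at 0.77 and 0.87, and those of the clearing enzymes and of the sensing genes at 0.05 and 0.16.

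Markers of other cells and of handling were read in the same libraries, and their part in the members' changes was not tested. The 10 myeloid markers summed to 3.81 to 3.90 CPM in control and 3.24 to 3.64 CPM with OBF1 shRNA, with 2 at 0 counts throughout. The 6 plasmacytoid dendritic cell markers, of the cell type known for making most interferon, summed to 0.19 to 0.25 CPM and 1.27 to 1.87 CPM, nearly all of it LILRA4, with 3 at 0 counts including CLEC4C. The 10 markers of T and NK cells summed to 0.19 to 0.27 CPM and 0.88 to 1.02 CPM, with 4 at 0. Fibroblast and epithelial markers summed to 2.74 to 2.95 CPM and 31.8 to 33.0 CPM, nearly all of it COL1A1, with 2 of 10 at 0. The 12 immediate-early and heat-shock genes that mark handling summed to 1815 to 1871 CPM and 1174 to 1236 CPM, with 4 called higher and 4 lower of 10 tested. The heat-shock genes HSPH1, DNAJB1 and HSPA1B carried the fall, from 1121 to 791, 402 to 194 and 238 to 66.6 CPM. Among the immediate-early genes JUNB, EGR1, IER2 and JUN were higher, by 2.60-fold, 2.92-fold, 1.49-fold and 1.21-fold, and FOSB was lower, by 3.03-fold.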

How the data were processed

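The authors deposited 1 table of raw read counts per gene, with gene lengths. Genome builds hg19 and mm9 are listed in the submitters' processing notes. The aligner, counter and strand setting were not given in the sources used here. Of 23459 rows, 23308 matched a symbol in a RefSeq gene table (GRCh38.p14); the other 151 held 0.116% to 0.138% of counts and stayed in the tests. No per-sample column was left out (0).

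The test was edgeR 4.0.16 (R 4.3.3): filterByExpr (min.count 10, min.total.count 15), TMM scaling, glmQLFit and glmQLFTest on all 6 libraries without covariates, and Benjamini-Hochberg adjustment over 12010 genes at 0.05. CPM used TMM-scaled library sizes, and RPKM the deposited lengths. The fit was tested on simulated data.

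Members and lists were chosen with earlier results of these data known. Library values are given for RIGI, IFIH1 and DHX58, the 10 largest called changes at a mean of at least 1 CPM, members called lower, and the smallest p-value of each role; from each related list the 2 smallest p-values per direction are named. Other genes with values were picked after those were seen. Alternatives were DESeq2 1.42.0, limma-voom (limma 3.58.1), RLE and upper-quartile factors, library sizes alone, no filter, a filter of 1 CPM in 3 libraries, a block for the replicate number, a test against 1.5-fold (glmTreat), and leaving out each library. Replicates differed by more than counting noise (chi-square per degree of freedom 1.84 to 3.17).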

Additional observations from a re-analysis of the deposited data

How the results depend on the processing

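Over 14 alternatives, leaving aside the test against 1.5-fold, 32 of the 37 tested members kept their direction and call where they were tested, and 30 of these were called higher. The exceptions were RIGI, EIF2AK2, IFIT5, IFI27 and IFI44. With library sizes alone the median of all genes moved to -0.116, the calls split into 3476 higher and 5778 lower (4508 and 4550 with TMM), and the member median was 0.663, with 30 members higher and 3 lower. There the uncalled RIGI, EIF2AK2 and IFIT5 changed sign, to -0.0513, -0.000306 and -0.0201, and 5 brakes were lower. The member median was 0.732 with no filter and 0.741 with 1 CPM in 3 libraries. Tested against a fold of 1.5, 1180 genes were higher and 787 lower, and of the members 21 and 1. In that test the further interferon-stimulated genes gave 8 higher and 0 lower, the receptors, kinases and factors 4 and 0, the sensing genes 6 and 1, the brakes 1 and 0, and the clearing enzymes 1 and 1. DESeq2 called 4229 genes higher and 4115 lower, and 30 and 2 members, sharing 32 calls with edgeR.

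With the replicate number as a replicate block, 4356 genes were called higher and 4403 lower, the member median was 0.772, and 30 members were higher and 3 lower. Same-numbered libraries deviated from their group means with correlations of 0.126, -0.328 and -0.302, and the highest correlation, 0.471, joined different numbers, so the numbers are not taken to pair the libraries. With 1 library left out, 4308 to 4533 genes were called higher and 4284 to 4441 lower, 30 to 31 members were higher and 2 to 3 lower, and the member median ranged from 0.749 to 0.792. In the 250 bases before the start alone, 60.5% of the members held the ISRE core, beside 3.71% of all genes. Depth limits the 9 untested members, whose largest count in a library was 12.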
